A study of Mus musculus with 9 samples.

Results

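The insulin-like growth factor binding proteins (IGFBPs) are secreted proteins encoded in the mouse by 7 genes, Igfbp1 to Igfbp7. They were picked out by gene symbol, and all 7 were among the 50600 genes counted by RNA-sequencing in 9 mouse libraries. The 9 libraries formed 3 groups of 3. Intestinal organoids, which are cultures of normal small intestinal epithelium, came from wildtype (WT) C57BL/6 mice and were kept for 24 hr in medium made up to 50% with conditioned medium. By their titles, 3 organoid libraries had received medium conditioned by tumoroids (T-cM) and 3 had received medium conditioned by WT organoids (WT-cM). Tumoroids, which are cultures of intestinal tumour cells, came from mice with 1 mutant copy of the tumour suppressor Apc (Apc1638N/+, strain given as MIX), were untreated and were also grown for 24 hr. Each group came from 3 different mice. Organoids were grown with EGF, Noggin and R-spondin1, whereas tumoroid medium lacked R-spondin1. The deposited strains differed too, although the study's methods give a mixed background for all mice. Genotype, strain and medium therefore cannot be told apart between tumoroids and organoids. By those methods WT-cM came from medium with R-spondin1 and T-cM from tumoroid medium, which could be conditioned for longer. Source of conditioning, R-spondin1 and conditioning time thus cannot be told apart between the organoid groups.

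IGFs are growth factors that signal through the receptor tyrosine kinase IGF1R, and IGFBPs hold them in the extracellular space, where they can keep IGF from the receptor or carry it there. Proteases cut IGFBPs and free the ligand, and several IGFBPs also bind matrix or cell surface proteins in their own right. In the small intestine, Igfbp4 is known as a gene of crypt base cells, and in whole tissue much of the other family members comes from stroma and vessels, which epithelial cultures are meant to lack.

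For the organoids the deposited titles and treatment fields contradict each other: each library titled as T-cM carries WT-cM as its treatment, and each titled as WT-cM carries T-cM. The names used here, T-cM-titled organoids and WT-cM-titled organoids, follow the titles, and each direction between them turns round if the treatment field is right. Between 16541635 and 25170966 reads per library fell on genes. A count of 3, taken as the least that shows expression, was worth 0.103 to 0.2035 CPM (counts scaled to the TMM-normalised size of the library). This floor and all intervals on counts below cover counting error only, since PCR copies of a molecule cannot be told from separate molecules here. The labelled epithelium was seen in all 9 libraries, with summed levels of 7 epithelial markers of 9290 to 11600 CPM in organoids and 6490 to 7380 CPM in tumoroids. Markers of fibroblasts (8 genes), endothelium (6 genes), immune cells (5 genes) and glia (3 genes) summed to at most 2.47, 3.92, 1.97 and 4.74 CPM, and Col3a1, Lum, Kdr and Emcn were at 0 in every library. Smooth muscle markers (5 genes) summed to at most 0.952 CPM in organoids but to 2.12 to 46.2 CPM in tumoroids.

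Igfbp2 and Igfbp5 are neighbours on chromosome 1 of GRCm38 (72824503 to 72852474, plus strand, and 72857932 to 72874884, minus strand), with 5457 bp between their 3′ ends and no protein-coding gene between them. Igfbp1 (7197782 to 7202546, plus strand) and Igfbp3 (7206086 to 7213923, minus strand) form a similar convergent pair on chromosome 11, 3539 bp apart. Igfbp4 lies elsewhere on chromosome 11 (99041244 to 99054392, plus strand), Igfbp6 on chromosome 15 (102144362 to 102149511, plus strand) and Igfbp7 on chromosome 5 (77349240 to 77408041, minus strand). The last overlaps the 3′ end of Polr2b on the other strand by 85 bp and contains the antisense gene Gm34648, and the strand setting of the counting was not given, so that a share of its reads could belong to these genes.

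The promoters of the 4 members with the most reads are shown because their levels carry the differences described below. All 7 genes were found by symbol among the RefSeq promoters. Each sequence is the 250 bases before the RefSeq start (GRCm38.p6), read 5′ to 3′ on the gene's own strand, and capitals mark the motif matches described after them.
Igfbp5 (chr1:72874866-72875115, minus strand): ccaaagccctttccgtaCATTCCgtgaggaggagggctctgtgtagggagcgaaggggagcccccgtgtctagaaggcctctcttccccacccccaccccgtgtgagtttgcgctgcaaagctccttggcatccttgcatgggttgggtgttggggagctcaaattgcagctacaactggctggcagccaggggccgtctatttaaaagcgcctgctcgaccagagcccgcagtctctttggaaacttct
Igfbp4 (chr11:99040994-99041243, plus strand): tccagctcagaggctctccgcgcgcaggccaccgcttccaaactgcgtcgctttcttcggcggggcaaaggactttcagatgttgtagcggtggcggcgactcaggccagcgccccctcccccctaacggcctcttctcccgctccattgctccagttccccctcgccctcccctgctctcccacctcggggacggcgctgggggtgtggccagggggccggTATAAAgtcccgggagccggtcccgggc
Igfbp2 (chr1:72824230-72824479, plus strand): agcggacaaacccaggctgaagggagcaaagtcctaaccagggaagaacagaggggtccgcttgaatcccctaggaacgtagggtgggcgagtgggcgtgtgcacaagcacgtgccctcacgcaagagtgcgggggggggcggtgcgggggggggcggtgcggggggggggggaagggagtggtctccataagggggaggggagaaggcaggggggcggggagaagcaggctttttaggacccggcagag
Igfbp7 (chr5:77408046-77408295, minus strand): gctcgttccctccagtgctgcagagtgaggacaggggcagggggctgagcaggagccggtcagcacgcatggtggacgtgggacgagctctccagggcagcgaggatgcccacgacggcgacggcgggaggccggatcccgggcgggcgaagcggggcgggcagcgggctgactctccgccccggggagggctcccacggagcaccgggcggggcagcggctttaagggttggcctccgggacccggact
These promoters were searched on both strands for the TEAD motif GGAATG, for the TCF/LEF motifs CTTTGAT and CTTTGAA and for the AP-1 motifs TGACTCA and TGAGTCA, and on the coding strand for the TATA box TATAAA. Igfbp5 held 1 TEAD motif, 233 to 228 bases before the start and read on the opposite strand, a motif found in 12.6% of 32851 mouse promoters of this length. Igfbp4 held a TATA box 28 to 23 bases before the start, found in 7.59% of promoters. The Igfbp2 and Igfbp7 promoters shown held none of these letters. The TCF/LEF and AP-1 motifs were in 7.48% and 4.46% of all promoters, and of the promoters of all 7 genes the AP-1 motif was found only in a second, downstream Igfbp2 start that RefSeq lists.

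The family was expressed at low levels in organoids and was led there by Igfbp4. Levels of different genes are compared as deposited TPM, which unlike CPM are corrected for gene length. Summed over the 7 genes, the family reached 8.31, 8.13 and 7.17 TPM in T-cM-titled organoids 1, 2 and 3, and 13.4, 6.95 and 8.71 TPM in WT-cM-titled organoids. Igfbp4 made up 90.2% to 92.9% of this sum in the 3 WT-cM-titled libraries and 93.1% in T-cM-titled library 1. In T-cM-titled libraries 2 and 3, Igfbp5 stood beside it at nearly the same level, with 49.6% and 46.4% of the sum against 47.0% and 48.8% for Igfbp4. The sum in these 2 libraries lay within the range of the other 4, while its make-up differed.

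In tumoroids the family summed to 76.9, 132 and 79.6 TPM, above all 6 organoid libraries, and each tumoroid line was led by a different member. Igfbp4 held 69.3% of the sum in tumoroid 1, Igfbp2 held 55.3% in tumoroid 2 and Igfbp7 held 85.0% in tumoroid 3. Across the 3 tumoroids Igfbp4 ranged from 8.63 to 53.3 TPM, Igfbp2 from 1.20 to 73.2 TPM, Igfbp7 from 4.02 to 67.7 TPM and Igfbp5 from 0.37 to 13.9 TPM. These ranges overlap. Igfbp4 and Igfbp2 exceeded Igfbp5 in each line, whereas the order of Igfbp4, Igfbp2 and Igfbp7 differed from line to line. Igfbp1 ranged from 0.32 to 1.18 TPM and Igfbp3 from 0.04 to 0.79 TPM, and Igfbp6 was at most 0.12 TPM. In bulk RNA, fewer cells that express a gene and less of its RNA per cell cannot be told apart.

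**Figure D1:**
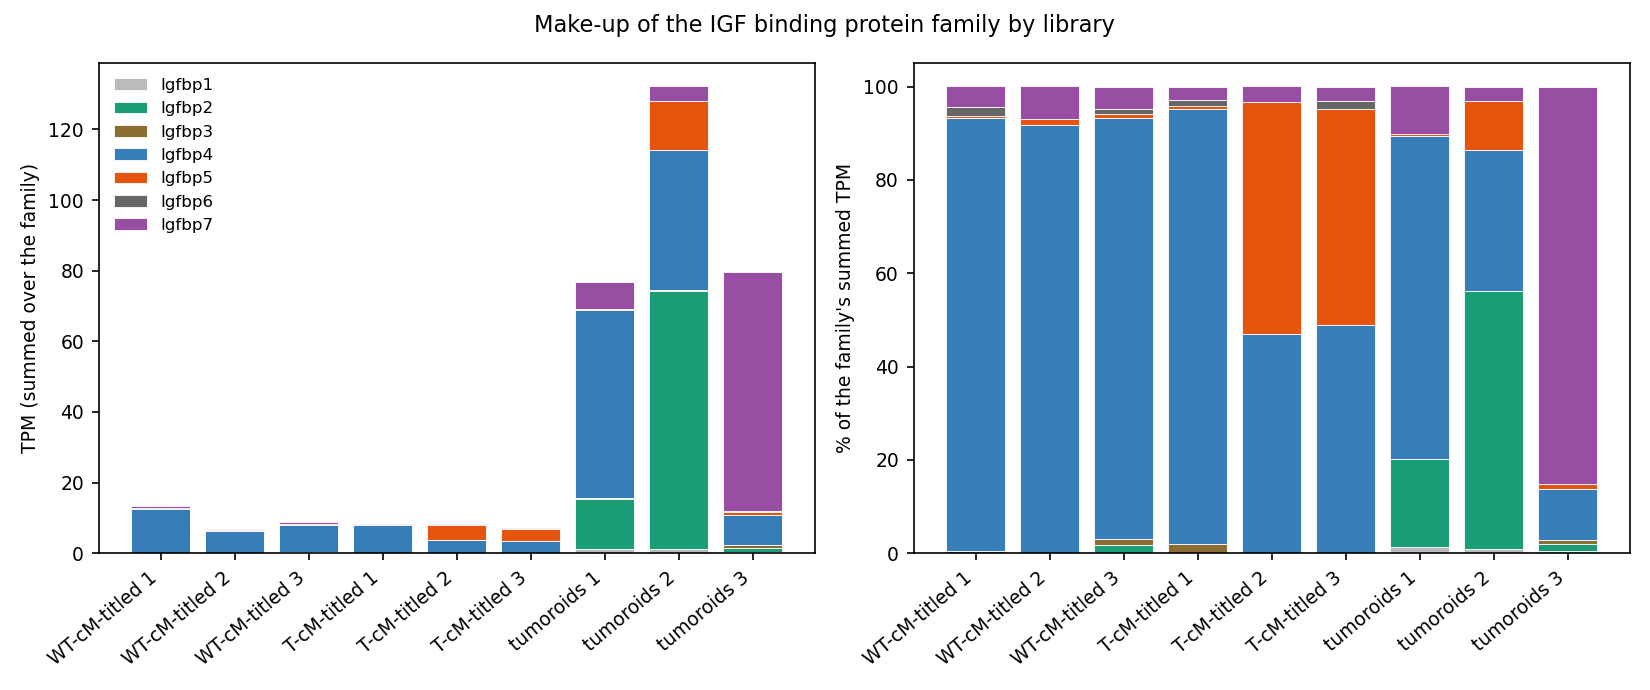
TPM of the 7 IGFBP genes stacked per library (left) and as a percentage of the family's summed TPM (right), for 3 WT-cM-titled organoid, 3 T-cM-titled organoid and 3 tumoroid libraries. The sums are 6.95 to 13.4 TPM in organoids and 76.9 to 132 TPM in tumoroids, and the leading member is Igfbp4, Igfbp2 and Igfbp7 in tumoroids 1, 2 and 3.

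Differences were tested with edgeR's quasi-likelihood test over the 16208 genes that reached a TPM of 1 somewhere among the 9 libraries. p-values were adjusted over all of them (Benjamini-Hochberg), and genes past 0.05 that also changed by more than 1 on the log2 scale were called. The family was chosen with results of these libraries known, so that its counts and p-values describe these libraries and add no independent support. Of the 7 members, 5 were tested. Igfbp3 and Igfbp6 stayed below the TPM limit in every library. Igfbp1, Igfbp2 and Igfbp7 passed it through tumoroid libraries alone and Igfbp5 through T-cM-titled libraries 2 and 3 and tumoroid 2, which selects for a difference, and Igfbp4 was the only member above it in all 9.

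The first comparison asked how organoids differ with the medium they received. Igfbp5, whose protein binds extracellular matrix as well as IGF, had 2, 145 and 149 reads in T-cM-titled organoids 1, 2 and 3 (0.106, 9.84 and 8.40 CPM). The WT-cM-titled organoids had 2, 4 and 5 reads (0.110, 0.243 and 0.221 CPM). Igfbp5 was thus high in T-cM-titled libraries 2 and 3 and near the floor in the other 4 organoid libraries, and the groups overlapped through library 1. Same-numbered organoid libraries deviated from their group means together, and the comparison was made within these pairs. The T-cM-titled library of pair 1 had 0.962 times the level of its partner (95% counting interval 0.0697 to 13.3), against 40.5 times in pair 2 (15.5 to 150) and 37.9 times in pair 3 (15.9 to 119). With the pairs as a block, the log2 fold change was 4.92 ± 0.40 (SE, 3 pairs, adjusted p = 7.6e-10 by edgeR). This SE comes from the fitted model and does not measure the spread between pairs, whose log2 differences were −0.03, 4.87 and 4.74. Igfbp5 was the 1 member called among the 5 tested, where 1.1% of all genes were called and 0.673% were called higher. The call was lost without the block (log2 fold change 4.96, adjusted p = 0.69), on log2(TPM + 1) (1.40, adjusted p = 0.34) and without pair 2 (4.55, adjusted p = 0.20), and it was kept without pair 1 or pair 3. Without the block and on log2(TPM + 1) no gene of the 16208 was called, and without pair 2 only 1 was, against 179 as reported.

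Igfbp4, an IGFBP known mostly as an inhibitor of IGF action, was lower in T-cM-titled organoids. It had 251, 101 and 115 reads in T-cM-titled organoids (13.3, 6.85 and 6.48 CPM) and 382, 193 and 343 reads in WT-cM-titled organoids (21, 11.7 and 15.2 CPM). The means were 8.87 ± 3.82 and 16 ± 4.68 CPM (SD, n = 3), and the groups overlapped because T-cM-titled library 1 lay above WT-cM-titled library 2. In every pair the T-cM-titled side was the lower, at 0.632 (95% counting interval 0.537 to 0.743), 0.584 (0.454 to 0.747) and 0.427 (0.342 to 0.529) times its partner, and over all genes 22.3% were lower in all 3 pairs. The log2 fold change was −0.87 ± 0.13 (SE, 3 pairs, adjusted p = 5e-05 by edgeR), which passed the p threshold, as 10.1% of genes did, but not that on fold. Its adjusted p was 0.87 without the block, 0.28 on log2(TPM + 1) and 0.23 without pair 2 (log2 fold change −0.92), each short of the p threshold. Without pair 1 the log2 fold change was −1.01 (adjusted p = 8.8e-09), past both thresholds.

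**Figure D2:**
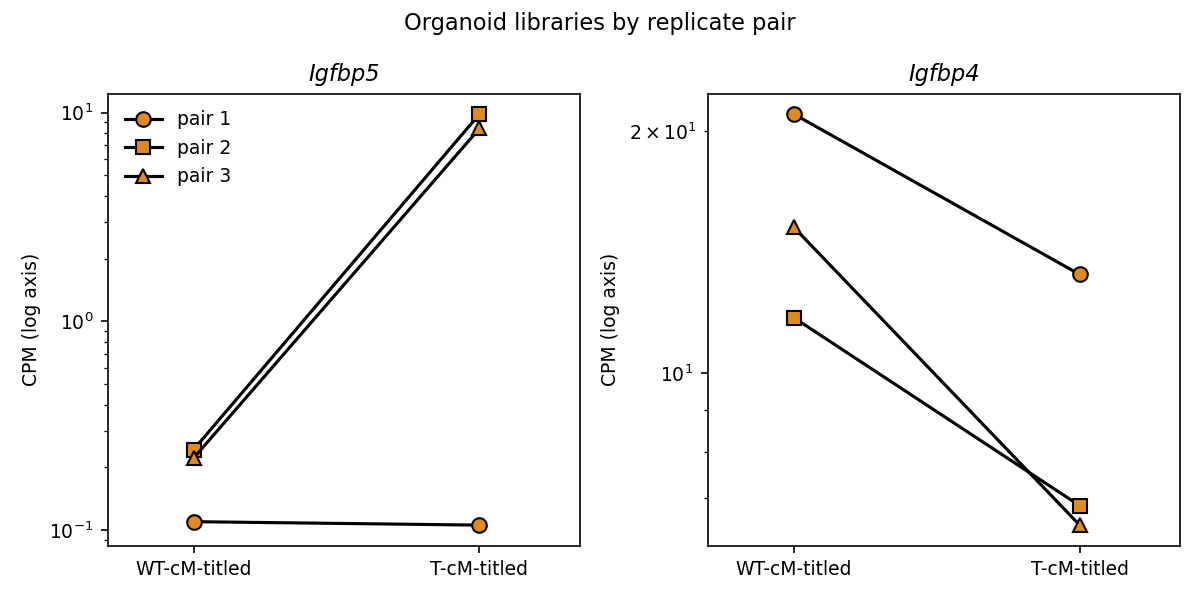
CPM (log axis) of Igfbp5 and Igfbp4 in WT-cM-titled and T-cM-titled organoids, with a line joining the 2 libraries of each replicate pair. Igfbp5 is level in pair 1 and about 40.5 and 37.9 times higher on the T-cM-titled side in pairs 2 and 3, whereas Igfbp4 is lower in all 3 pairs.

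The other members were at or near the floor in organoids. Igfbp7, a more distant relative that binds IGF weakly, had 2 reads in each T-cM-titled library and 5, 4 and 5 reads in WT-cM-titled libraries. Its groups did not overlap, as in 5.28% of all genes in this direction, but the ratio of 6 to 14 reads was 0.477 with a counting interval of 0.150 to 1.32, and the log2 fold change was −1.02 ± 0.86 (SE, adjusted p = 0.55 by edgeR). Igfbp2, an IGFBP that can bind integrins, had 3 reads in WT-cM-titled library 3 and none in the other 5 organoid libraries, and Igfbp1, an insulin-regulated IGFBP of the liver, had none in any. Igfbp3, the main IGF carrier of serum, had 4, 0 and 0 reads in T-cM-titled libraries and 1, 0 and 3 in the WT-cM-titled ones, and Igfbp6, which prefers IGF2 over IGF1, had at most 2 reads in any library. A difference between the organoid groups was not detectable at this depth for these 5 genes.

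The second question was how tumoroids differ from each organoid group. The comparisons with WT-cM-titled and with T-cM-titled organoids share the tumoroid libraries and one fit, and their values are given side by side. Of the 5 members tested, 4 were called higher against WT-cM-titled organoids (Igfbp1, Igfbp2, Igfbp5 and Igfbp7) and 4 against T-cM-titled organoids (Igfbp1, Igfbp2, Igfbp4 and Igfbp7). In the former comparison limma voom called 2 (Igfbp1 and Igfbp7) and DESeq2 called 4, with Igfbp4 in place of Igfbp1. In the latter each called 3, voom without Igfbp4 and DESeq2 without Igfbp1. All 5 fitted fold changes were above 0 in both comparisons, where the median log2 fold changes of all genes were 0.15 and 0.163. Igfbp1, Igfbp2 and Igfbp7 had passed the TPM limit through tumoroids alone, which selects for this sign. Over all genes 29.8% were called in the former comparison (18.2% higher) and 31.2% in the latter (19.4% higher). In CPM, the 3 tumoroids lay above all WT-cM-titled libraries for the 4 members called there, as for 28.2% of all genes. They lay above all T-cM-titled libraries for Igfbp1, Igfbp2 and Igfbp7, as for 30.1%.

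Igfbp2 had 179, 974 and 18 reads in tumoroids 1, 2 and 3 (8.11, 36.2 and 0.618 CPM). All 3 lay above all organoid libraries, and tumoroid 2 was far above the other two. Its log2 fold change was 8.04 ± 1.76 (SE, adjusted p = 0.0080 by edgeR) over WT-cM-titled organoids, where 1171 against 3 reads gave a ratio of 286 (95% counting interval 97.7 to 1390). By limma voom the call was lost (log2 fold change 6.72, adjusted p = 0.051). It was 6.24 without tumoroid 2 (adjusted p = 0.012) and 11.26 without WT-cM-titled library 3, which held all 3 organoid reads, so that the latter value depends on the prior count and is not a size. Against T-cM-titled organoids, which had no Igfbp2 read, its mean level was at least 84.6-fold higher than 3 counts per library, and at least 3.49-fold higher in the lowest tumoroid (adjusted p = 0.0059 by edgeR).

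Igfbp7 had 63, 35 and 666 reads in tumoroids (2.86, 1.30 and 22.9 CPM). It was highest in tumoroid 3, and all 3 tumoroids lay above the 6 organoid libraries, which held 0.106 to 0.275 CPM. The log2 fold change was 5.17 ± 1.05 over WT-cM-titled organoids (SE, adjusted p = 0.0034 by edgeR) and 6.20 ± 1.15 over T-cM-titled organoids (adjusted p = 0.0020). Without tumoroid 3 these were 3.03 (adjusted p = 0.0014) and 4.05 (adjusted p = 0.00044), so that both calls held without the highest library. Igfbp3 was also highest in tumoroid 3, with 1, 1 and 20 reads in tumoroids 1, 2 and 3 (0.687 CPM in the last). It was tested only without the TPM filter. Its log2 fold change was then 1.90 over WT-cM-titled organoids (adjusted p = 0.35 by edgeR) and 1.75 over T-cM-titled organoids (0.40). Tumoroid 3 stood apart for smooth muscle markers, whose 5 genes summed to 46.2 CPM there, against 4.44 and 2.12 CPM in the other tumoroids and 0.177 to 0.952 CPM in organoids. Nearly all of this was Acta2, which encodes smooth muscle actin, with 89, 50 and 1340 reads in tumoroids, whereas Cnn1 was at 0, Des had 3, 0 and 0 reads, Myh11 had 4, 2 and 2 and Tagln had 2, 5 and 2. Of the 6 endothelial markers, Cdh5 (1, 1 and 54 reads) and Tek (4, 7 and 53) were highest in tumoroid 3, Pecam1 had 5 reads in each tumoroid and was below all organoid libraries in CPM, Plvap had 3, 2 and 2 reads, and Kdr and Emcn were at 0. Of the 8 fibroblast markers, Pdgfrb had 4, 3 and 52 reads, Col1a1 7, 7 and 12 and Pdgfra 0, 6 and 7, and the other 5 had at most 1 read in any tumoroid. The part of these markers in the Igfbp7 and Igfbp3 levels was not tested.

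Igfbp1 was the weakest of the members called, with 11, 13 and 4 reads in tumoroids (0.499, 0.483 and 0.137 CPM) and none in organoids. Its mean tumoroid level was at least 2.33-fold higher than 3 counts per WT-cM-titled library and at least 2.11-fold higher than 3 counts per T-cM-titled library, and tumoroid 3 by itself was below both floors. The adjusted p-values were 0.020 and 0.021 (edgeR), and both calls were lost without tumoroid 1 (0.056 and 0.059). The call against T-cM-titled organoids was also lost without tumoroid 2 (0.051). Both were lost by DESeq2 (adjusted p = 0.083 and 0.090) and on log2(TPM + 1), where the change was 0.86, and edgeR's filterByExpr left Igfbp1 untested.

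Igfbp5 had 15, 600 and 42 reads in tumoroids (0.680, 22.3 and 1.44 CPM), so that tumoroid 2, which also led for Igfbp2, was far above the other two. The 3 tumoroids lay above all WT-cM-titled organoids but around T-cM-titled organoids, of which libraries 2 and 3 exceeded tumoroids 1 and 3. The log2 fold change was 5.37 ± 1.72 over WT-cM-titled organoids (SE, adjusted p = 0.031 by edgeR). It fell to 2.43 without tumoroid 2 (adjusted p = 0.18), and the call was also lost without any one of the 3 WT-cM-titled libraries (adjusted p = 0.089, 0.089 and 0.090), by limma voom (0.21) and on log2(TPM + 1) (0.13). Over T-cM-titled organoids its value was 0.42 ± 1.32 (95% interval −2.16 to 3.00, adjusted p = 0.82), and it was −2.52 without tumoroid 2.

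Igfbp4 had 1585, 1267 and 310 reads in tumoroids (71.8, 47.1 and 10.6 CPM). Tumoroids 1 and 2 lay above all organoid libraries. In CPM, tumoroid 3 lay below all 3 WT-cM-titled libraries and below T-cM-titled library 1. In TPM, at 8.63, it lay above WT-cM-titled libraries 2 and 3 (6.37 and 7.86) and T-cM-titled library 1 (7.74). The TMM factors behind CPM were 1.185 to 1.215 in tumoroids and 0.8895 to 0.9617 in organoids, and TPM carries no such factor. Over WT-cM-titled organoids Igfbp4 had a log2 fold change of 1.43 ± 0.58 (SE, adjusted p = 0.073 by edgeR), which was not called, and it was 1.88 without tumoroid 3 (adjusted p = 0.0024) but 0.85 without tumoroid 1 (adjusted p = 0.28). Igfbp4 was called there by DESeq2 (adjusted p = 0.033), without the TPM filter (0.043) and on log2(TPM + 1) (0.049), and not by limma voom (0.24). Over T-cM-titled organoids it was 2.28 ± 0.60 and was called (adjusted p = 0.012 by edgeR), although the groups overlapped in CPM. The call was lost without T-cM-titled library 2 (adjusted p = 0.051) and by limma voom (0.070).

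**Figure D3:**
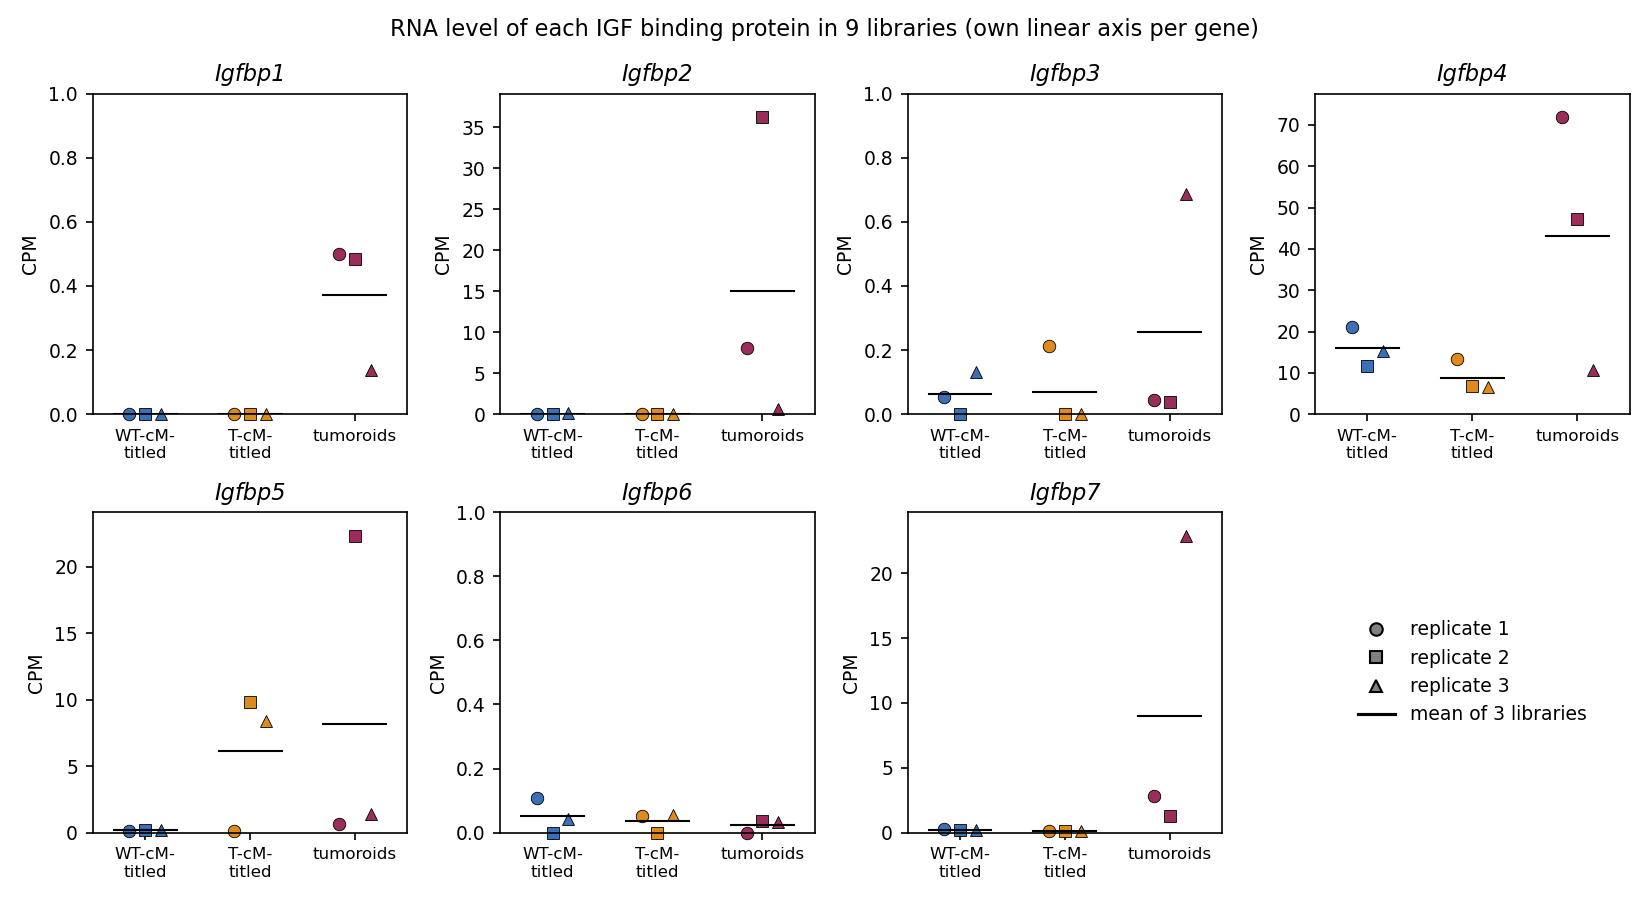
CPM of each IGFBP gene in 3 WT-cM-titled organoid, 3 T-cM-titled organoid and 3 tumoroid libraries, each gene on its own linear axis from 0, with symbols for replicate numbers and a bar at the group mean. Igfbp2 and Igfbp5 are highest in tumoroid 2 (36.2 and 22.3 CPM), Igfbp7 in tumoroid 3 (22.9 CPM) and Igfbp4 in tumoroid 1 (71.8 CPM), and Igfbp5 is the only panel with T-cM-titled libraries 2 and 3 well above the other organoids.

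**Figure D4:**
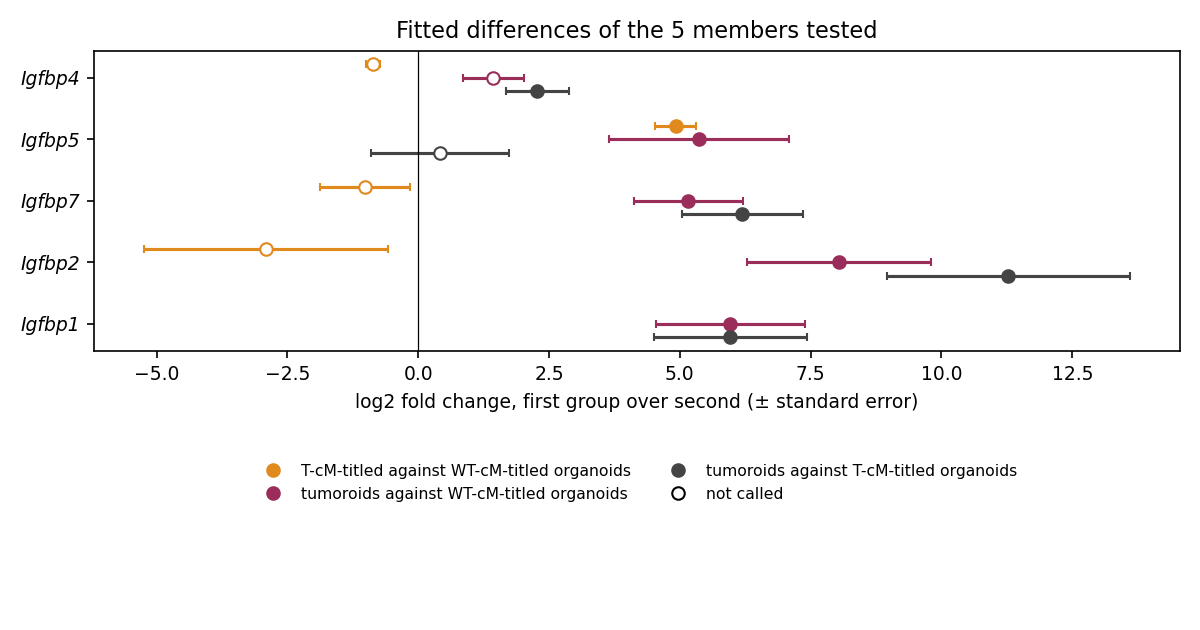
log2 fold changes with standard errors derived from the edgeR F test for the 5 members tested in 3 comparisons, filled where called and open where not. Igfbp4 and Igfbp5 have opposite signs between the organoid groups (−0.87 and 4.92), and Igfbp1 has no organoid value because it had no read in those 6 libraries, so that its tumoroid values, like that of Igfbp2 over T-cM-titled organoids, depend on the prior count and are not sizes.

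The rise of Igfbp5 in pairs 2 and 3 alone was then looked for in other genes, a search chosen after its values were seen. Of 16208 genes, 3 were at least 10-fold higher on the T-cM-titled side in pairs 2 and 3 and changed less than 2-fold in pair 1 (with 0.2 CPM added to each level), and none was at least 10-fold higher in pair 1 and changed less than 2-fold in pairs 2 and 3. Besides Igfbp5 these were Ranbp3l and Tmem27. Ranbp3l had 3, 423 and 481 reads in T-cM-titled organoids and none with WT-cM as the titled medium, and Tmem27 had 5, 177 and 185 against 2, 6 and 7. In tumoroids 1, 2 and 3, Ranbp3l had 1, 436 and 13 reads, with the highest in tumoroid 2 as for Igfbp5, but Tmem27 had 0, 1 and 0. Igfbp2, at 974 reads in tumoroid 2, had none in any T-cM-titled library. Over the tested genes as a whole, libraries 2 and 3 were the closest to each other in both organoid groups. Pair 1 thus stood apart beyond these genes, and why was not tested.

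Over all 9 libraries, likeness of pattern was measured as the root mean square difference of log2 CPM after centring each gene on its mean. The genes nearest to Igfbp5 were Spaca6 (1.02), Cd34 (1.23) and Slc17a1 (1.25). Spaca6 had 13, 81 and 79 reads in T-cM-titled libraries, 7, 9 and 8 in the WT-cM-titled ones and 33, 351 and 117 in tumoroids, which follows Igfbp5 over a narrower range. Nearest to Igfbp2 were Muc6 (0.52), Saa3 (0.68) and Dact1 (0.80), and nearest to Igfbp7 were C77370 (0.28), Fscn1 (0.37) and Cd53 (0.38). Muc6, which encodes a gel-forming mucin of the stomach, had 169, 447 and 8 reads in tumoroids and none in organoids. Limk2 (0.25), 2410006H16Rik (0.27) and Gm11714 (0.28) were nearest to Igfbp1, and Gm5159 (0.39), RP23-36H21.3 (0.40) and Prodh (0.46) to Igfbp4. For Igfbp1 the small differences come with a narrow range of log2 CPM at few reads, and Limk2 itself had 1408 to 2238 reads in organoids and 6736 to 11401 in tumoroids.

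The partners of the family in the IGF pathway were described from lists written by hand. Of the 6 ligand and receptor genes, Igf1 had at most 1 read per library, and Igf2 had 4 to 46 reads and stayed below the TPM limit, as did Insrr. Igf1r, the receptor that IGFs signal through, had 105, 80 and 111 reads in T-cM-titled organoids, 144, 74 and 122 in WT-cM-titled organoids and 282, 1230 and 907 in tumoroids. It was higher in each tumoroid than in any organoid library (log2 fold change 2.33 ± 0.42 over WT-cM-titled organoids, SE, adjusted p = 0.0018 by edgeR) and did not differ detectably between the organoid groups (−0.02, 95% interval −0.36 to 0.33, adjusted p = 1). Igf2r, which clears IGF2, had a log2 fold change of 0.92 (adjusted p = 0.025), short of the fold threshold, and Insr, the insulin receptor, had a log2 fold change of −0.02 (adjusted p = 0.96).

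Among 9 genes for IGFBP proteases and their regulators, 7 were tested and 6 were called higher in tumoroids than in either organoid group (4 and 5 by DESeq2), beside 18.2% and 19.4% of all genes. Of the 7, 5 passed the TPM limit through tumoroid libraries alone, which selects for such a difference. Pappa2, a protease that cuts IGFBP5, rose by 2.82 ± 0.49 over WT-cM-titled organoids (SE, adjusted p = 0.0014 by edgeR). The stanniocalcin genes Stc2 (3.49 ± 0.56, adjusted p = 0.00094) and Stc1 (4.59 ± 1.09, adjusted p = 0.0075), whose products inhibit pappalysins, rose too. Pappa and Adam28 fall outside the rule for naming genes. Pappa, the protease of IGFBP4, had 0.0343 CPM in 1 tumoroid and no read elsewhere, and Adam28 was the tested gene not called (adjusted p = 0.071), with nearly all of its level in tumoroid 3 (0.181, 0.0372 and 16 CPM). Between the organoid groups none of the 7 was called by edgeR, limma voom or DESeq2, and 2 had an unadjusted p under 0.05 in edgeR. Of these Mmp7, named after its values were seen, passed the adjusted threshold but not that on fold (log2 fold change −0.35, adjusted p = 0.015).

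Of the 3 genes for IGFBP-like proteins, Kazald1 was tested and was higher in tumoroids (2.49 ± 0.43 over WT-cM-titled organoids, SE, adjusted p = 0.0014 by edgeR). Of the 5 reported cell surface partners, 4 were tested. Itga5, an integrin subunit, was higher in tumoroids (3.47 ± 0.75, adjusted p = 0.0048), and Lrp1, an endocytic receptor, was lower (−1.52 ± 0.23, adjusted p = 0.00059). Between the organoid groups none of these 4 was called by edgeR, limma voom or DESeq2, and Lrp1 alone passed the adjusted threshold in edgeR, being higher in T-cM-titled organoids (log2 fold change 0.35, adjusted p = 0.0080). Of 23 genes of intracellular insulin and IGF signalling, 19 were tested and 1 was called in each tumoroid comparison, the docking protein gene Irs1, beside 29.8% and 31.2% of all genes. It had 6, 7 and 4 reads in T-cM-titled libraries, 10, 7 and 12 in the WT-cM-titled ones and 169, 583 and 821 in tumoroids (5.23 ± 0.53, adjusted p = 6.6e-05). Irs1, Kazald1 and Itga5 reached the TPM limit in tumoroids alone, which selects for a difference in this direction. The median log2 fold change of the 19 was 0.04 over WT-cM-titled organoids and 0.02 over T-cM-titled organoids, and between the organoid groups none of them passed the adjusted threshold by edgeR, limma voom or DESeq2, with 3 at an unadjusted p under 0.05 in edgeR.

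**Figure D5:**
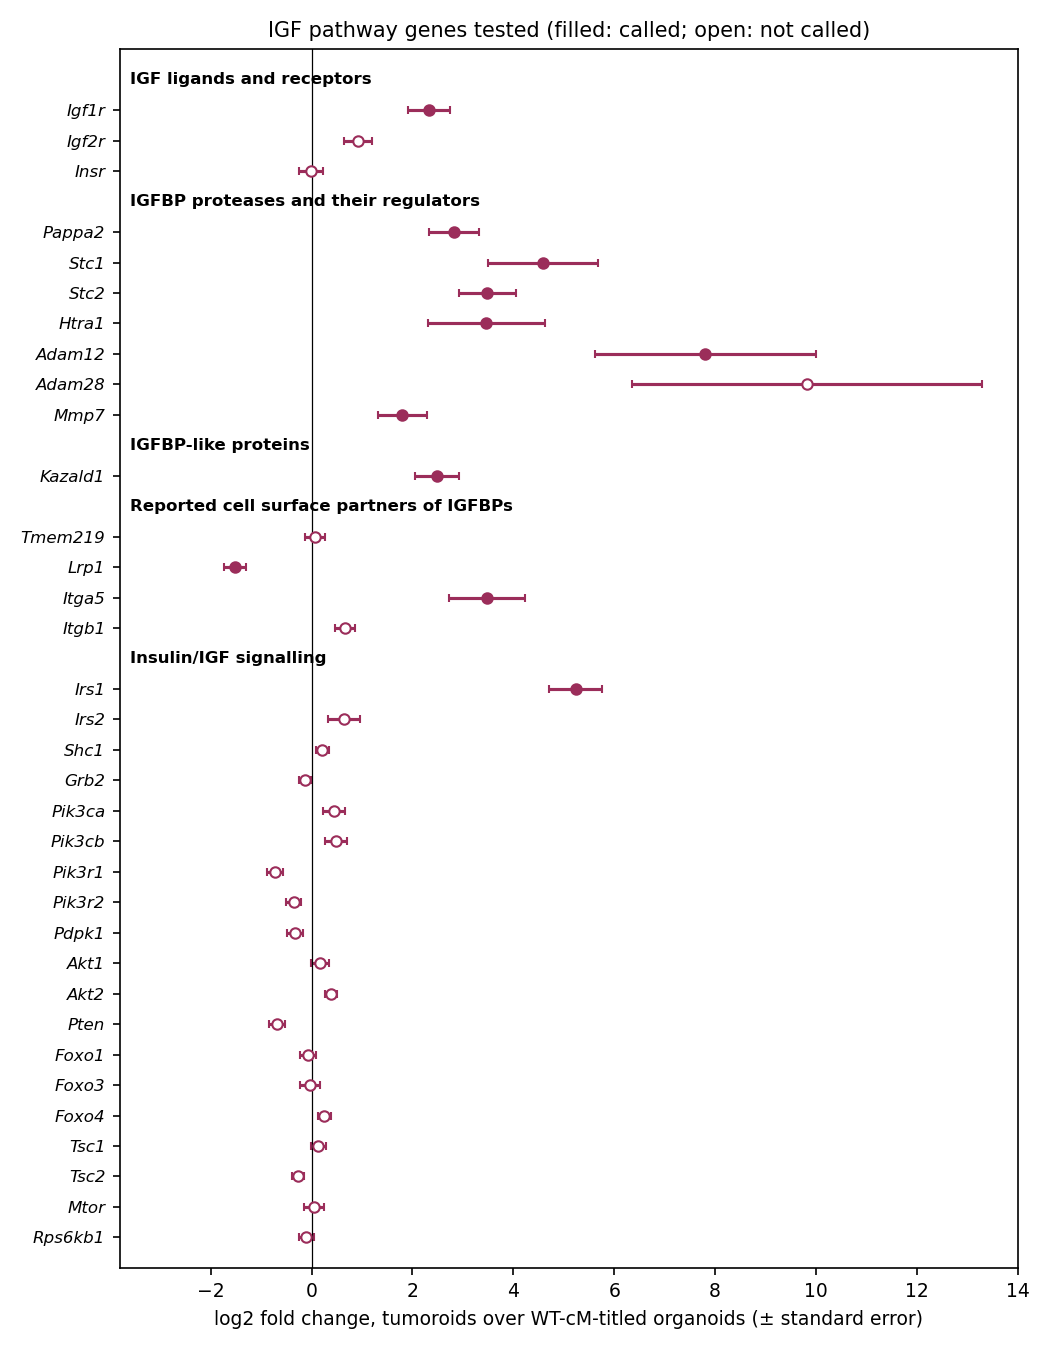
log2 fold changes of tumoroids over WT-cM-titled organoids with standard errors derived from the edgeR F test for the tested genes of 5 IGF pathway lists, filled where called and open where not. Most genes of intracellular signalling sit near 0 with Irs1 far to the right (5.23), while 6 of 7 genes for proteases and their regulators are called higher and Lrp1 is lower (−1.52).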

How the data were processed

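RNA-sequencing was performed on polyA-selected, stranded, paired-end libraries from 6 organoid and 3 tumoroid samples. The authors aligned reads to mm10 with STAR (submitters' processing notes) and deposited raw counts per gene without normalisation. The authors also deposited TPM, in which gene length and library total are both corrected for. The counting tool and its strand setting are not given in the sources used here. The 7 members and all gene lists were chosen with earlier results of these data known. Groups and replicate numbers were taken from the titles.

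Counts were normalised with TMM and fitted with edgeR 4.0.16 (quasi-likelihood test in its older form, R 4.3.3) for genes that reached a TPM of 1 in any library. Organoid groups were compared over 6 libraries with replicate number as a block, following the authors' model, and tumoroids with organoids over 9 libraries without one. Deviations from group means correlated at 0.546, 0.338 and 0.547 within same-numbered organoid pairs and at −0.447 to −0.0524 between other pairs. Centring on the mean of 3 libraries pushes the latter down where the former are high, so that they add nothing independent. The pairing rests on this check, on the shared numbers of the titles and on the sample effect in the authors' model. Organoids and same-numbered tumoroids correlated at −0.0705 to 0.196, and these numbers were not taken as pairs. The paper states that the T-cM came from the tumoroids that were sequenced, but does not say which line conditioned the medium of which organoid library. No 2 libraries of a group agreed within sampling noise. Chi-square per degree of freedom, near 1 for sampling noise alone, was lowest between libraries 2 and 3 in both organoid groups. It was 16 there against 47.8 and 68 in T-cM-titled organoids, and 26.1 against 56.7 and 93.4 in WT-cM-titled organoids. The fits were tested on simulated counts of 16208 genes with 200 changed by 2 on the log2 scale. Of these, 99% were recovered in the organoid comparison and 100% in each tumoroid comparison, with 5, 3 and 3 false calls. The simulation had 1 fixed dispersion for all genes, no pair effect and no added spread between tumoroid lines. Changes were placed only in genes above a minimum mean count. It therefore checks the code and does not show recovery for members with few reads or with lines that differ widely.

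Counting intervals of ratios are exact conditional 95% intervals. Standard errors of log2 fold changes were the absolute change divided by the square root of the edgeR F statistic. The 95% intervals of log2 fold changes were normal intervals from these errors, with no allowance for the small number of libraries. log2 CPM used a prior count of 2. Alternatives were limma 3.58.1 (voom on counts, or log2 of TPM + 1), DESeq2 1.42.0, upper-quartile or RLE factors, dropping the TPM filter, edgeR's filterByExpr, the newer quasi-likelihood form, no fold threshold, the block left out or added, and each pair or library left out. Genes were named by rule: all members, all ligands and receptors, up to 3 genes per direction of each other pathway list with the smallest p among those called, the 3 nearest patterns of each called member, and markers as whole lists. Genes outside the rule are said to be so. Promoter sequences are from RefSeq, figures were drawn with matplotlib 3.10.9, and the proteomics and imaging of the study were not used here.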

Additional observations from a re-analysis of the deposited data

How the results depend on the processing

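Of the 122 log2 fold changes of members recomputed under alternatives other than leaving libraries out, 109 kept direction and side of the threshold, and none changed direction. The direction was fixed for Igfbp1 by its lack of organoid reads. For Igfbp2 it was fixed in both comparisons with T-cM-titled organoids, which had no read of it. Between the organoid groups, 0 members were called on log2(TPM + 1) and 0 without the replicate block, and 2 (Igfbp4 and Igfbp5) with no fold threshold, against 1 as reported. Of all 16208 genes, 0 were called on log2(TPM + 1) and without the block, and 1 without pair 2. Igfbp5 then had a log2 fold change of 1.40 on log2(TPM + 1) (adjusted p = 0.34) and 4.96 without the replicate block (adjusted p = 0.69). Adding the block to the tumoroid comparisons changed no call. Without 1 pair, 0 to 2 members were called, with log2 fold changes of 4.55 to 5.26 for Igfbp5 and −1.01 to −0.71 for Igfbp4. Against WT-cM-titled organoids, limma voom called 2 members in place of 4, with 6.72 for Igfbp2 (adjusted p = 0.051) and 3.82 for Igfbp5 (0.21), and log2(TPM + 1) gave 1.64 for Igfbp5 (0.13). Igfbp4 was called there by DESeq2 (1.39, adjusted p = 0.033), without the TPM filter (1.44, 0.043) and on log2(TPM + 1) (1.53, 0.049). Igfbp1 was 5.21 by DESeq2 (adjusted p = 0.083) and 0.86 on log2(TPM + 1), and against T-cM-titled organoids 5.05 (0.090) and 0.86. These and the values of Igfbp1 below depend on how each method treats a group without reads and are not sizes. Igfbp4 was 1.92 by voom against T-cM-titled organoids (adjusted p = 0.070). Leaving out 1 library gave 5.65 to 6.28 for Igfbp1, 0.85 to 1.88 for Igfbp4 and 2.43 to 5.91 for Igfbp5 against WT-cM-titled organoids. Against T-cM-titled organoids it gave 5.65 to 6.28 for Igfbp1, 1.70 to 2.72 for Igfbp4 and −2.52 to 0.96 for Igfbp5, which turned negative without tumoroid 2 (−2.52) or T-cM-titled library 1 (−0.16). The cause of these changes was not tested. Counts of 0 to 5 reads per library in organoids limit all statements on Igfbp1, Igfbp2, Igfbp3, Igfbp6 and Igfbp7 there.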
